A study of Mus musculus with 4 samples.

Results

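The genes described here encode voltage-gated calcium and sodium channels, HCN channels, the intracellular calcium release channels, TRP channels, the ClC chloride channel family and the ATP-driven calcium pumps. They were chosen by gene symbol alone. A probe set of the array, excluding the controls, was taken when its annotation gave exactly 1 gene symbol and that symbol began with Cacna, Cacnb, Cacng, Clcn, or with Scn, Hcn, Ryr, Itpr, Trpc, Trpv, Trpm, Atp2a or Atp2b and a number. This gave 61 of 12422 probe sets, from 42 of the 8251 genes named by the array. By family they were 13 calcium channel, 8 sodium channel, 3 HCN, 8 release channel, 9 TRP, 13 chloride channel and 7 calcium pump probe sets. The TRP set includes Trpc4ap, which encodes a protein that associates with a TRPC channel and forms no channel itself.

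These proteins set how a neuron moves calcium, sodium and chloride across its membranes. Voltage-gated sodium channels carry the upstroke of the action potential, voltage-gated calcium channels admit calcium at dendrites and at transmitter release sites, and HCN channels pass a depolarising current at negative potentials. Ryanodine and IP3 receptors release calcium from the endoplasmic reticulum, SERCA pumps (Atp2a) return it there, and plasma membrane pumps (Atp2b) export it from the cell. Several of these genes have a form typical of skeletal muscle, and granule cells of the dentate gyrus, the main neurons of this part of the hippocampus, are known for their hyperpolarised resting potential and sparse firing.

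Total RNA of the dentate gyrus was measured on 4 single-channel arrays. Each came from young male C57BL/6J mice that were handled and received no further treatment, and RNA was taken 1, 2, 4 or 6 h after other mice of the study had been given their last shock. Arrays of the shocked mice are not analysed here. With 1 array an hour there is no replicate error at any hour. Any mean ± SD runs over the 4 arrays, and since the number of mice or pools behind an array is not in the labels, p-values measure only the spread between these arrays. The deposited values are intensities on a linear scale that depend on each probe set's own sequence, and levels are therefore compared between arrays and not between genes. In bulk tissue, fewer cells of a type and less RNA per cell cannot be told apart.

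None of the channel and pump genes passed the test for a change over the hours. Of the 61 probe sets, 40 (30 genes) passed a filter on dim values, a mean log2 intensity of at least 6.66, which is an intensity of 101. The highest of the 4 arrays was under 1.5 times the lowest in 19 of these 40 and at least 2 times the lowest in 10. Over all 7453 probe sets that passed, these shares were 54.1% and 18.5%, against 47.5% and 25% for the channel and pump genes. Itpr2 on one of its probe sets, Ryr2, Atp2a2 and Trpc4ap varied least, while Ryr1, Clcn7 on one of its probe sets, Clcn1 and Scn8a varied most.

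Upstream sequences are shown for 4 genes that frame this range. Clcn1 and Scn8a had the steepest positive slopes, Cacng2 was among the genes whose 1 h array lay far below 3 close later ones, and Ryr2 was among the steadiest. The sequences are the 250 bases before the most upstream start that RefSeq gives for the gene (GRCm38.p6), and 34 of the 42 genes had an entry. Capitals mark CpG, a C followed by a G.
Scn8a, chr15:100870395-100870644, plus strand: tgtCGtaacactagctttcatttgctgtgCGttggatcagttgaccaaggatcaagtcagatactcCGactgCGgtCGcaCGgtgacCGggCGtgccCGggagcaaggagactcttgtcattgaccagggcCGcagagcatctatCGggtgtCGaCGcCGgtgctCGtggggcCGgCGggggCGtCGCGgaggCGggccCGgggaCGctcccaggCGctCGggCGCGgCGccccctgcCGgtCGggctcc
Cacng2, chr15:78119281-78119530, minus strand: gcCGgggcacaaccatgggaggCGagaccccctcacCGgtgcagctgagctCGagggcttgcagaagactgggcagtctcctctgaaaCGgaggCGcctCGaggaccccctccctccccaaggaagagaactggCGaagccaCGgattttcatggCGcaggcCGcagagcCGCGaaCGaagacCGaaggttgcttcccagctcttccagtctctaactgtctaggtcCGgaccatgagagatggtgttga
Ryr2, chr13:12106946-12107195, minus strand: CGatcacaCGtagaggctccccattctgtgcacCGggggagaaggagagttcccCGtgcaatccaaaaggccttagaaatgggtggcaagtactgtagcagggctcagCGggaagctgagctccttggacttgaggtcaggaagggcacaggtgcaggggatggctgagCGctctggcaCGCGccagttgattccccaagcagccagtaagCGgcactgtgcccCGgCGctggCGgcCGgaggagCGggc
Clcn1, chr6:42286435-42286684, plus strand: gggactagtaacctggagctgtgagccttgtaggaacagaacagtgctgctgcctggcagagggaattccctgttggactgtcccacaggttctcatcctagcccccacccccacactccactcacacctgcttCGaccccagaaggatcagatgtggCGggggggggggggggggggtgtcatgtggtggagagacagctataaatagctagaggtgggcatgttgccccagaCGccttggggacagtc
The Scn8a window holds 30 CpG, those of Cacng2 and Ryr2 hold 16 and 14, and that of Clcn1, a gene best known from skeletal muscle, holds 3 and a TATAAA box in lower case. Over the 34 genes the number ran from 1 to 36 with a median of 12, against a median of 10 over the windows of 17491 protein-coding genes, and the median GC content was 62.2% against 55.2%. On either strand, the GC box GGGCGG was present in 50% of the 34 windows and 42.7% of all, CCAAT in 23.5% and 36.5%, TATAAA in 5.88% and 12.4%, and the cAMP response element TGACGTCA in 2.94% and 1.98%. None of the 4 windows shown holds a GC box. These are descriptions of letters in a window and show no binding. The steady Ryr2 and the more variable Cacng2 have windows of similar CpG number.

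The 1 h array stood apart in 1 of the control transcripts. The ratio of the 3' to the 5' control probe set of Gapdh was 4.88 at 1 h and 1.13, 1.33 and 1.24 at 2, 4 and 6 h, and the 5' probe set of Gapdh read 7553 at 1 h against 24943 to 26761 later. For actin the same ratio was 2.51, 1.83, 2.20 and 1.97, and its 5' probe set at 1 h, at 16040, lay within the range of the later arrays, 14516 to 18290. Every low value at 1 h given below is therefore to be read beside that ratio, whose part in it was not tested. Of the granule cell markers, Prox1, Calb1, Dsp, Tdo2 and Neurod1 were measured, on 7 probe sets of which 6 passed the filter, and their summed intensity ran from 4611 to 5230. Prox1, a granule cell transcription factor, read 71.6, 278, 155 and 232, lowest at 1 h. None of the other granule cell markers fell as far at 1 h. Calb1, at 2033 to 2375, and Dsp, at 970 to 1109 where it passed the filter, were lowest there by a small margin. Neurod1, at 418, 470, 326 and 353, was lowest at 4 h. Tdo2 was lowest at 1 h on 1 probe set and at 4 h on the other. Markers of other cells were present too. Summed intensities ran from 12471 to 12871 for interneurons, 15026 to 18152 for astrocytes, 12976 to 20069 for oligodendrocytes with the highest at 2 h, 4270 to 5450 for microglia, 6932 to 8228 for CA pyramidal cells, 663 to 1320 for endothelium with the lowest at 6 h, and 887 to 1149 for the cerebellar list. Choroid plexus markers summed to 679, 816, 1758 and 3590 at 1, 2, 4 and 6 h. Their Ttr, at 225, 444, 1258 and 3009, was the 1 gene of all that passed the trend test described below (adjusted p of 0.0232 in limma). The rise in that sum was mainly that of Ttr. On 1 probe set Folr1 was also highest at 6 h, at 65.5, 63.1, 118 and 267. Kl, at 280, 109, 194.5 and 190, was highest at 1 h. Aqp1 and a second Folr1 probe set did not pass the filter. Of 11 probe sets for muscle genes, 3 passed the filter, and the sum over all 11 ran from 755 to 1003. The part of these markers in the results below was not tested.

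**Figure D1:**
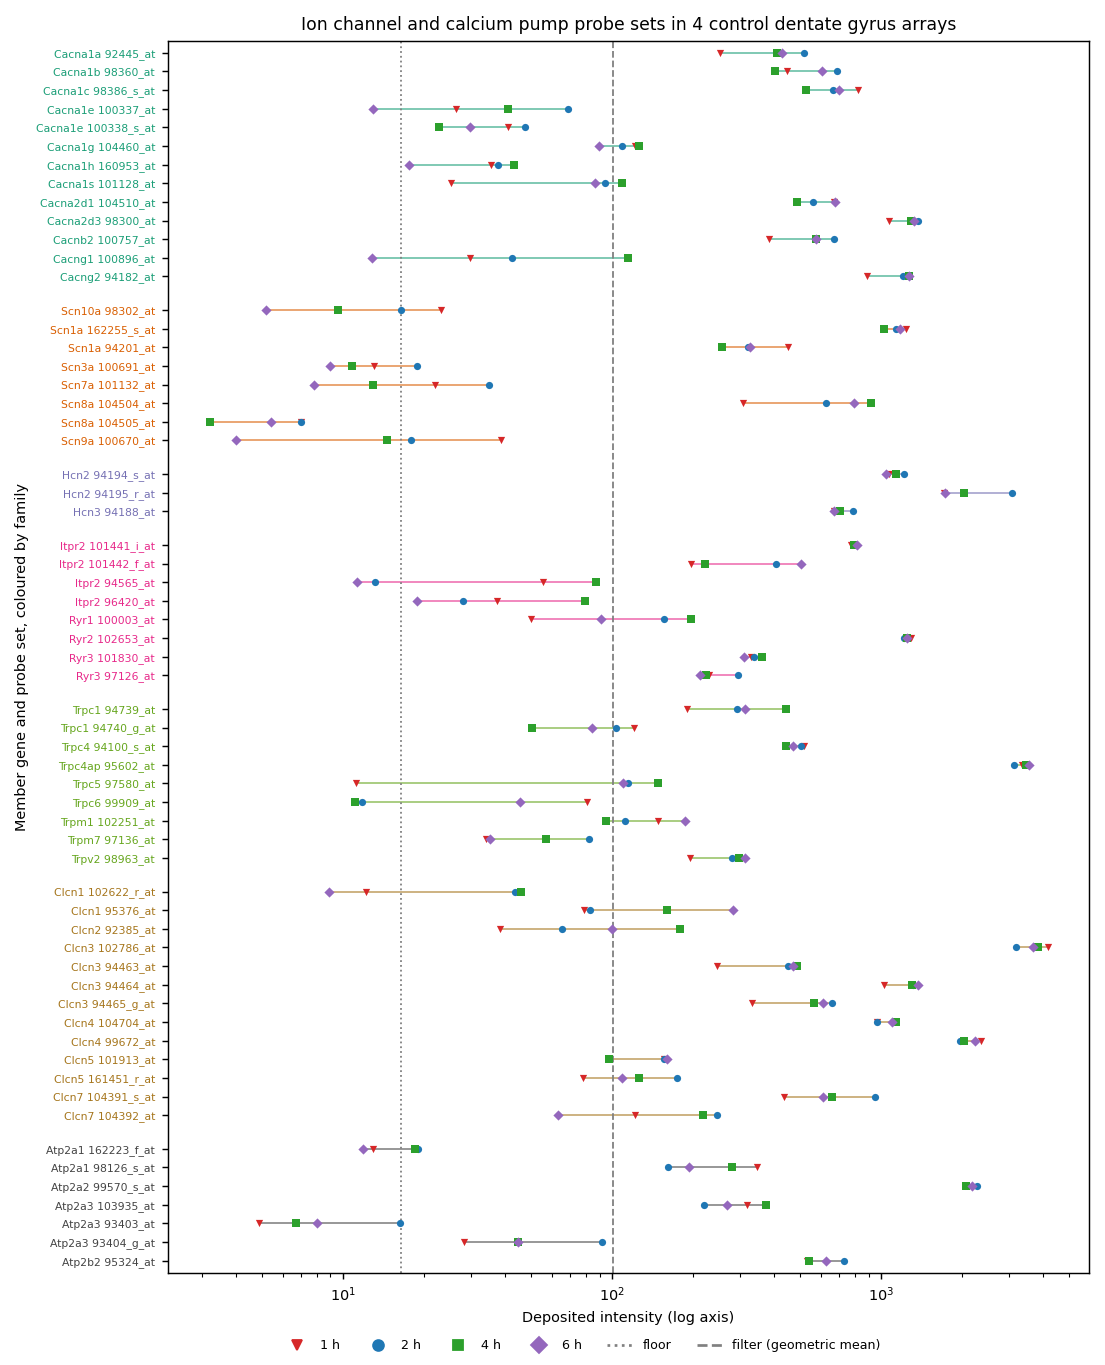
Deposited intensity (log axis) of all 61 probe sets in the 1, 2, 4 and 6 h arrays, by family, with a line from the lowest to the highest array. The dotted line is the floor of 16.4 and the dashed line the filter, applied to the geometric mean; Ryr2 spans 1218 to 1290 and the Clcn1 probe set that passed the filter 78.9 to 282.

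Among the pore-forming calcium channel subunits, Cacna1a, Cacna1b, Cacna1c and Cacna1g passed the filter, and Cacna1e, Cacna1h and Cacna1s did not. Cacna1a, the P/Q-type pore that drives transmitter release at most central synapses, read 253, 520, 411 and 427 at 1, 2, 4 and 6 h. Only its 1 h value lay well below the others, with 1.26-fold between the later arrays. Cacna1b, the N-type pore of presynaptic terminals, read 447, 689, 404 and 604. Its arrays alternated, low at 1 and 4 h and high at 2 and 6 h. Cacna1c, the neuronal and cardiac L-type pore, went the other way from Cacna1a at 1 h, with 824, 662, 526 and 698, and was lowest at 4 h. Cacna1g, a T-type channel that opens near rest, read 122, 109, 126 and 89.9, lowest at 6 h.

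The remaining pore subunits were dim. Cacna1e, the R-type pore, read 26.4, 69.0, 41.2 and 12.9 on 1 probe set and 41.2, 47.7, 22.8 and 29.8 on the other, and both were highest at 2 h. Cacna1h, another T-type pore, read between 17.7 and 43.3. Cacna1s, the L-type pore that triggers contraction of skeletal muscle, read 25.2 at 1 h and 94.5, 109 and 86.7 later.

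Of the auxiliary subunits, Cacna2d3, Cacnb2 and Cacng2 had 3 close later arrays and a lower one at 1 h. Cacna2d3, an alpha2delta subunit that raises channel density at the membrane, read 1074, 1377, 1297 and 1326. Cacnb2, a cytoplasmic beta subunit, read 383, 672, 574 and 572. In Cacna2d3 and Cacnb2 the later arrays lay within 1.06-fold and 1.18-fold. Cacna2d1, the alpha2delta subunit that binds gabapentin, read 672, 558, 489 and 678, so its 1 h and 6 h arrays were alike and high. Cacng2 (stargazin) is named for calcium channels but best known for carrying AMPA receptors to synapses. It read 889, 1213, 1271 and 1273, a mean of 1162 ± 184 (SD, n = 4), with the later arrays within 1.05-fold and the 1 h array below them. Cacng1, the gamma subunit of skeletal muscle, was dim, at 29.8, 42.4, 115 and 12.8. Of the 8 calcium channel probe sets that passed the filter, 5 read lower at 1 h than their other arrays averaged, and 3 read higher.

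Of 8 sodium channel probe sets, 3 passed the filter, those of Scn1a and 1 of Scn8a. Scn8a, which encodes the Nav1.6 pore of axon initial segments, read 307, 627, 922 and 794 at 1, 2, 4 and 6 h. It was low at 1 h, 2.52-fold below the geometric mean of the later arrays, which themselves lay within 1.47-fold. The part of the 1 h array's Gapdh ratio of 4.88 in this was not tested. A second Scn8a probe set read between 3.2 and 7.0, under the floor of 16.4 in every array, and gives no information on this gene. Scn1a, the Nav1.1 pore prominent in fast-spiking interneurons, showed no such low value at 1 h. Its probe sets read 1238, 1139, 1029 and 1177, and 450, 321, 257 and 325, both highest at 1 h and lowest at 4 h. Pvalb, a marker of fast-spiking interneurons, read 2587, 2304, 2366 and 2144 on its probe set that passed the filter, also highest at 1 h. A second, dimmer Pvalb probe set read 78.1, 53.7, 179 and 77.6, highest at 4 h. Other interneuron markers differed. Gad1, at 4067, 4128, 4181 and 4310, and Npy, at 1568, 1839, 1964 and 1786, were lowest at 1 h, and Sst was even, at 4013 to 4073. The part of these markers in the Scn1a values was not tested.

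Probe sets for sodium channels best known from other tissues or ages read at or near the floor. Scn3a, a pore most abundant before birth, read 9.0 to 18.8, and Scn10a and Scn9a, pores of sensory neurons, read 5.2 to 23.1 and 4.0 to 38.8. Scn7a, a sodium-sensing relative of these channels, read 7.8 to 35.1. Each was under the floor in at least 1 array. Such a reading does not show that a gene is absent, as 1 of the Scn8a probe sets was also under the floor.

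The HCN genes had little spread on 2 of 3 probe sets, and all 3 were highest at 2 h. Hcn2, a broadly expressed HCN subunit, read 1071, 1217, 1136 and 1045 on one probe set, and Hcn3 668, 788, 702 and 671. These are means of 1117 ± 76.7 and 707 ± 55.9 (SD, n = 4), or 1.16-fold and 1.18-fold from lowest to highest. On a second probe set, whose suffix _r_at marks probes chosen under relaxed rules, Hcn2 read 1721, 3068, 2041 and 1725. The 2 h array was the high one here as well, by a larger margin.

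The ryanodine receptors differed in their steadiness. Ryr2, the form most abundant in heart and in brain, read 1290, 1218, 1254 and 1251, a mean of 1253 ± 29.3 (SD, n = 4), and the 1 h array did not stand out. Ryr3 read 329, 337, 363 and 310 on one probe set and 229, 295, 224 and 214 on another, again with no low value at 1 h. Ryr1, the skeletal muscle form, read 49.9, 157, 197 and 91.3. It was 2.83-fold lower at 1 h and 2.21-fold higher at 4 h than the geometric mean of the other arrays, at intensities near the filter. Without the 2 h or the 4 h array Ryr1 did not pass the filter.

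All 4 probe sets for IP3 receptors are annotated to Itpr2, and they did not behave alike. One, with the suffix _i_at, read 773, 811, 795 and 813 and was the least variable of the 40, at 1.05-fold. A second, with the suffix _f_at that marks sequence shared with related genes, read 197, 407, 222 and 505, with 2 h and 6 h high. The other two were dim, at 11.3 to 87.3 and 18.8 to 79.5, both highest at 4 h and lowest at 6 h. A 2.57-fold spread on one probe set beside 1.05-fold on another leaves no single pattern for this gene.

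Among TRP channels that passed the filter, Trpc4 was the most even. Trpc4, a receptor-operated cation channel of neurons, read 517, 503, 443 and 473. Trpv2, a cation channel named with the heat-sensing TRPV group, read 195, 279, 297 and 314, an upward order in which the 1 h value was the distant one. Trpc1, a subunit that joins other TRPC proteins, read 190, 291, 444 and 313 on one probe set. On the second it was 121, 104, 50.5 and 84.4, lowest at 4 h where the first was highest, and this second one did not pass the filter. Trpm1, known from retinal bipolar cells and melanocytes, read 149, 112, 95.4 and 187.

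Trpc5, a TRPC channel of hippocampal neurons, Trpc6 and Trpm7 did not pass the filter. Trpc5 read 11.2 at 1 h, under the floor, and 115, 149 and 110 later. Trpc6 read 81.0, 11.8, 11.1 and 45.6, under the floor at 2 h and 4 h. Trpm7, a channel fused to a kinase, read 34.1, 82.4, 57.1 and 35.2. Trpc4ap, the channel-associated protein, read 3345, 3119, 3459 and 3537 and was steady, within 1.13-fold.

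In the chloride family, all 10 probe sets of Clcn3, Clcn4, Clcn5 and Clcn7, exchangers of endosomes and lysosomes, passed the filter. Of those of Clcn1 and Clcn2, channels of the cell surface, 1 of 3 passed. Over the whole array 7453 of 12422 probe sets did. The 10 stand for only 4 genes. Passing depends on each probe set's own sequence, so these counts do not compare levels between genes. Clcn4 was steady on both its probe sets, at 965, 966, 1135 and 1099, and at 2361, 1962, 2044 and 2247. Clcn3, whose product acidifies endosomes and synaptic vesicles, has 4. One read 4162, 3184, 3851 and 3687 and was highest at 1 h. The other three were lowest at 1 h, at 1029 against 1310 to 1375, 246 against 453 to 486, and 333 against 565 to 656. The Clcn3 probe sets thus differ in direction at 1 h, and in each the 2, 4 and 6 h arrays lay within 1.05-fold to 1.21-fold.

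Clcn5, the endosomal exchanger of kidney tubules, and Clcn7, the lysosomal exchanger, were less even. Clcn5 read 157, 157, 97.9 and 161 on one probe set, low only at 4 h, and 78.1, 175, 126 and 110 on the other, low only at 1 h. Clcn7 read 435, 948, 657 and 609 on the first and 122, 245, 218 and 63.2 on the second. Both were highest at 2 h. On the second, Clcn7 was 2.06-fold higher at 2 h and 2.95-fold lower at 6 h than the geometric mean of the other arrays.

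Clcn1, the chloride channel that stabilises the resting potential of skeletal muscle, had the steepest order of any channel gene. It read 78.9, 82.8, 160 and 282 at 1, 2, 4 and 6 h, with 6 h 2.78-fold above the geometric mean of the other arrays. Its second probe set, with the suffix _r_at, read 12.2, 43.7, 46.1 and 8.9 and was under the floor at 1 h and 6 h, so it does not repeat the order. Clcn2, a widely expressed inward-rectifying chloride channel, read 38.3, 65.3, 179 and 100 and did not pass the filter.

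Atp2a2, the SERCA pump of neurons and heart, which read 2057, 2274, 2067 and 2179, was steady and had a mean of 2144 ± 103 (SD, n = 4), within 1.11-fold. Atp2b2, a plasma membrane pump of neurons, read 531, 727, 540 and 625. The only other probe sets to pass were 1 of Atp2a1, the SERCA pump of fast skeletal muscle, at 347, 161, 280 and 193, and 1 of Atp2a3, a SERCA pump of blood cells and some neurons, at 318, 219, 373 and 267. On these probe sets Atp2a1 and Atp2a3 were lowest at 2 h, where Atp2a2 and Atp2b2 were highest. A second Atp2a1 probe set read 11.9 to 19.0, and 2 more of Atp2a3 read 4.9 to 16.3 and 28.3 to 91.7. These did not pass the filter. The Atp2a3 probe set at 4.9 to 16.3 was under the floor of 16.4 in every array and gives no information on this gene. The second Atp2a1 probe set was under the floor in 2 arrays, and no order is read from it. The Atp2a3 probe set at 28.3 to 91.7 was highest at 2 h, unlike the one that passed.

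Genes whose products are typical of skeletal muscle (Cacna1s, Cacng1, Ryr1, Clcn1 and Atp2a1) had 7 probe sets, of which 3 passed the filter. This grouping was made after the values were seen. The 3 differed in direction: at 1 h, Ryr1 and Clcn1 were lowest and Atp2a1 was highest. Of the muscle markers, 3 probe sets passed the filter: Acta1 read 271, 243, 196 and 261, Actn3 133, 176, 208 and 142, and Myl1 225, 82.2, 183 and 127. Myl1 was highest at 1 h and lowest at 2 h, as was the Atp2a1 probe set that passed. Actn3 on this probe set was lowest at 1 h and highest at 4 h, as was Ryr1. The other Actn3 probe set, which did not pass the filter, read 155, 48.1, 48.4 and 33.7, highest at 1 h. Acta1 was highest at 1 h and lowest at 4 h. The part of muscle RNA in these values was not tested.

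As a list, the 40 probe sets that passed the filter more often had their lowest value at 1 h than probe sets overall did. The 1 h array was the lowest of the 4 in 21 of them (52.5%), against 30.5% of all 7453 probe sets, and the highest in 8 (20%), against 35.4%. The share lowest at 1 h was 48.65% in the partner list described below. Among markers it was 66.67% for granule cells, 50% for interneurons, 80% for astrocytes, 77.78% for oligodendrocytes and 60% for microglia. It was 40% for CA pyramidal cells, 33.33% for choroid plexus and muscle, and 0% for endothelium and cerebellum. The high share is thus not particular to the channel and pump genes. At 1 h, 27 (67.5%) read lower than the other arrays averaged, against 45.4% of all, with a median log2 difference of -0.12, while the median over all 7453 was 0.05. The medians for the channel and pump genes were 0.09, 0.06 and 0.08 at 2, 4 and 6 h. With no filter, over all 61, the median at 1 h was -0.08, and with the 1 h array left out the medians were 0.04, -0.04 and 0.00 at 2, 4 and 6 h. By family, the median difference at 1 h was -0.37 for chloride channels, -0.31 for calcium channels, -0.10 for HCN, -0.07 for release channels, -0.01 for TRP genes, 0.05 for pumps and 0.15 for sodium channels. These medians rest on 3 to 11 probe sets, and that for chloride channels counts 4 of Clcn3. The sodium channel median is over 2 probe sets of Scn1a, at 0.15 and 0.59, and Scn8a, at -1.33. These values have no test, and the 1 h array is the one whose Gapdh ratio was 4.88.

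**Figure D2:**
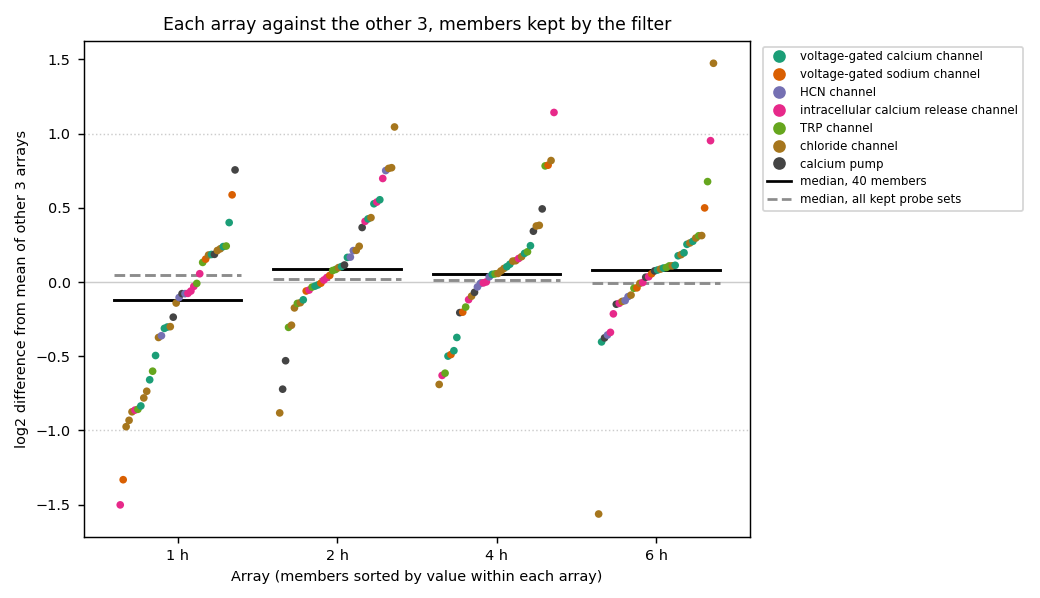
log2 difference of each array from the mean of the other 3 for the 40 probe sets that passed the filter, sorted within each array and coloured by family; black lines are their medians and dashed grey lines the medians over 7453 probe sets. At 1 h the black line lies at -0.12 and the grey one at 0.05, and 27 of 40 points lie below 0.

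Few of the 40 were at least 2-fold away from the mean of the other 3 arrays. At 1 h, 2 were lower, Ryr1 and Scn8a, and 0 higher, where 5.29% and 1.8% of all 7453 probe sets were. At 2 h, 1 was higher, Clcn7, and 0 lower, against 1.81% and 1.58%. At 4 h, 1 was higher, Ryr1, and 0 lower, against 1.42% and 1.4%. At 6 h, 1 was higher, Clcn1, and 1 lower, Clcn7, against 0.912% and 1.85%. With 40 probe sets these counts lie near the background and are no result about the channel genes. In all, 36 of the 40 (90%) reached 2-fold in no array, against 88.5% of all, and over the 2, 4 and 6 h arrays alone 27 (67.5%) lay within 1.5-fold, against 74.7%.

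The trend over the hours was fitted with limma on all 7453 probe sets. In it, 0 of the 40 passed an adjusted p of 0.05 in either direction, and the lowest adjusted p among them was 0.874. Over all probe sets 0.0134% were called rising and 0% falling. At an unadjusted p under 0.05 there were 2 of 40 (5%), Clcn1 and Scn8a, against 328 of 7453 (4.4%). Clcn1 had a log2 slope per hour of 0.39 ± 0.11 (SE) and Scn8a of 0.25 ± 0.09, and limma's adjusted p was 0.874 for both. Without the 1 h array the Clcn1 slope was 0.44 and that of Scn8a 0.09, and without the 6 h array Clcn1 did not pass the filter and Scn8a had 0.49. Slopes were positive for 24 and negative for 16, with a median of 0.01, against 46.6% positive and a median of -0.01 over all. Values followed the hours strictly upward in 3 of 40 (7.5%), Clcn1, Trpv2 and Cacng2, and strictly downward in 0, against 4.44% and 5.98% of all, which is near the background.

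**Figure D3:**
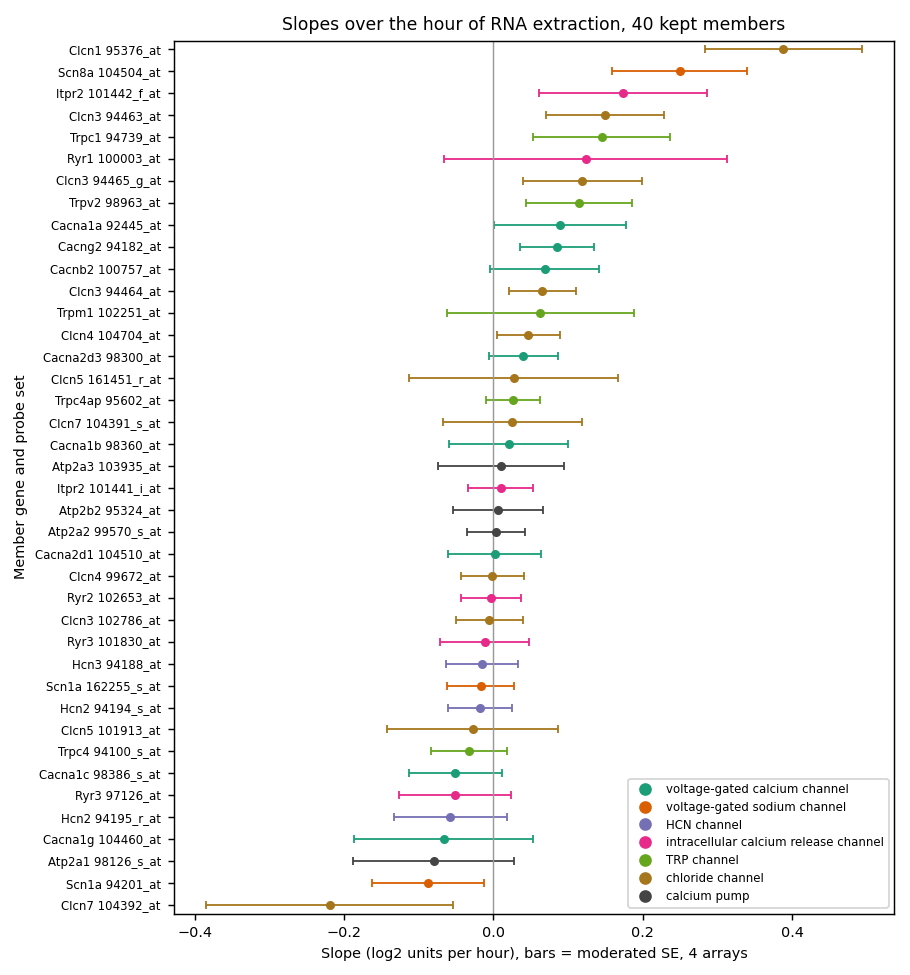
Slope of log2 intensity on the hour, with moderated SE bars, for the 40 probe sets that passed the filter (n = 4 arrays), coloured by family. Clcn1 at 0.39 and Scn8a at 0.25 lie at the top and Clcn7 at -0.22 at the bottom, and most bars reach 0.

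Of 14 genes with several probe sets, 8 had more than 1 that passed the filter. In 4 of these, Clcn3, Clcn4, Clcn5 and Clcn7, the slopes differed in sign, and in 3, Clcn3, Clcn4 and Clcn5, one read higher and another lower at 1 h than its other arrays. In each of the 4 genes whose slopes differed in sign, at least 1 slope was smaller in size than its SE. For Clcn4 on one probe set it was -0.0012 ± 0.042 (SE). For Scn1a, Hcn2 and Ryr3 every probe set had a slope of the same, negative sign, and for Itpr2 both were positive. Over all members, 17 of 61 have a suffix that marks shared sequence or fewer probes, and 12 of those passed the filter.

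**Figure D4:**
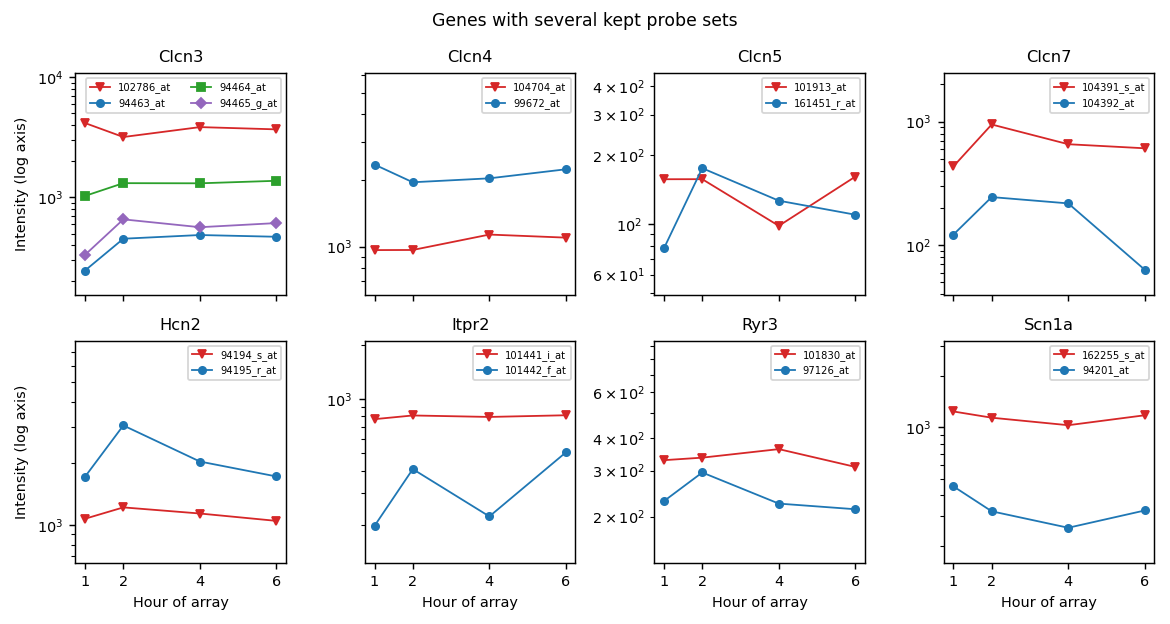
Intensity (log axis) by hour for the 8 genes with more than 1 probe set that passed the filter, 1 line per probe set. Clcn3 shows 3 lines that are low at 1 h and 1 that reads 4162 there, and Hcn2 and Clcn7 peak at 2 h on both lines.

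The partners of these channels and other calcium-handling genes were measured from a fixed list of 63 genes, of which 38 had probe sets on the array. Of their 50 probe sets 37 passed the filter, and 0 of those passed the trend test in limma (lowest adjusted p of 0.874). At an unadjusted p under 0.05 in limma there were 2 (5.4%), Calb2 and Dlg4, against 4.4% of all 7453. The median log2 difference at 1 h was -0.07, against 0.05 over all. In any hour, 6 of the 37 were at least 2-fold from the other arrays. Of all 7453, 88.5% reached 2-fold in no array, and the count of 6 has no test. Grina, which encodes a membrane protein of the endoplasmic reticulum and Golgi, read 1689, 6482, 6154 and 6649 on one probe set and 5011, 10819, 10418 and 10428 on the other, low at 1 h on both. Syt1, the calcium sensor of vesicle release, read 816, 2165, 1268 and 1707. Calm2, a calmodulin gene, and Canx, a chaperone of the endoplasmic reticulum, on one of its probe sets were instead highest at 1 h, at 575, 290, 348 and 232, and at 323, 135, 219 and 138. Ncs1, a neuronal calcium sensor, was low at 2 h, at 246, 99.9, 214 and 169.

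A further 5 partners were chosen after their values were seen, and their part in the channel values was not tested. Jph3, a junctophilin that holds the endoplasmic reticulum close to the plasma membrane and so to ryanodine receptors, read 5671, 5418, 5521 and 5334. Stim1, the sensor of store calcium, read 947, 870, 896 and 826, and Fkbp1b, which binds ryanodine receptors, 1774, 1397, 1394 and 1813. Ank3 (ankyrin-G), which anchors sodium channels at the axon initial segment, read 3741, 2711, 2670 and 3014 on one probe set and 4695, 3959, 3904 and 3461 on the other. Ank3 was thus highest at 1 h, where Scn8a was lowest. Fgf13, an intracellular sodium channel modulator, read 434, 501, 514 and 538. Fgf11, of the same fixed list but not of these 5, was lowest at 1 h on one probe set, at 110, 225, 196 and 217. On the other it was highest there, at 666, 555, 632 and 595.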

How the data were processed

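The study deposited 1 table of probe set intensity values on a linear scale for 4 arrays, and per the labels each is total RNA of dentate gyrus. The scaling and software the authors used are not given in the sources used here. In the deposited table the 2%-trimmed mean over all 12488 rows was 500.3 in each array, so total RNA cannot be compared.

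The array annotation supplied for this work named genes, with symbols checked through RefSeq identifiers. The 66 control rows were left out. Values under the 10th percentile (16.4) were set to it, log2 was taken, and probe sets with a mean log2 at or above the 40th percentile (6.66) were kept. Slopes on the hour came from limma 3.58.1 in R 4.3.3 (eBayes with a trend, 2 residual degrees of freedom, two-sided, Benjamini-Hochberg over 7453 probe sets), tested on simulated data. Differences of 1 array from the mean log2 of the other 3 have no test. Promoter windows came from RefSeq.

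Genes named with all 4 values were those 2-fold apart, of steepest slope, smallest spread, strict order, several probe sets or an outlying array, and the others were added after their values were seen. The members and lists were chosen with earlier results of these data known. Alternatives were scaling, quantile normalization, floor, filter, variance prior, time scale and each array left out. The number of arrays limits the precision.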

Additional observations from a re-analysis of the deposited data

Results flagged for a closer look

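In 9 of the 59 probe sets with a value above the floor, 1 array lay far from the other 3 by Dixon's ratio of gap to range on the log2 values. The nominal rate is about 1 in 20 groups, and it does not hold where several arrays are set to the same floor. The 9 are 15.3% of the 59, against 11.9% of the 12098 such probe sets on the array. Among those above the floor in every array the shares were 5 of 48 (10.4%) and 8.17%. Of the 9, 7 concerned the 1 h array, whose Gapdh ratio was 4.88. Cacng2 read 888.6 at 1 h, Clcn3 246.1 and 1029 on separate probe sets, Cacna1s 25.2 and Trpc5 11.2, each below its later arrays. Scn10a at 23.1 and Scn9a at 38.8 were above theirs at 1 h, while Scn3a read 18.8 at 2 h. For Scn10a and Scn3a the other arrays lie at or under the floor of 16.4 and are set to it, which alone gives them the highest possible ratio. Clcn5 read 97.9 at 4 h on one probe set, against 157 to 161 in the other arrays. Of the 9, 4 passed the filter on dim values: Cacng2, both of Clcn3, and Clcn5.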

How the results depend on the processing

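In limma, 0 channel or pump probe sets were called under every alternative run. Over all probe sets, the 1 call became 0 with no filter, with a variance prior without a trend, with later against earlier hours, and without the 4 h or the 6 h array (0 to 1 with an array left out). The count at least 2-fold from the other arrays moved mainly with the filter: with none it was 8, 6, 9 and 7 at 1, 2, 4 and 6 h, and at the 60th percentile 1, 0, 0 and 0. Quantile normalization gave 0 at 2 h. With 1 array left out in turn it ran from 0 to 3 at 2 h (3 without the 1 h array) and from 1 to 2 at 4 h. The median difference of the channel and pump genes, -0.12 at 1 h, ran from -0.16 with a common median to -0.06 without the 2 h array. At 4 h it was 0.06 and turned to -0.04 without the 1 h array, and at 6 h, from 0.08, it ran from -0.003 with no filter to 0.19 with a common median.

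Of the 10 highest and 10 lowest slopes, 12 changed sign with an array left out, none of them called. With 1 array left out, the lowest and highest slopes were -0.16 and 0.065 for Atp2a1, -0.071 and 0.18 for Cacna1a, -0.21 and 0.019 for Cacna1c, -0.083 and 0.027 for Cacna1g, -0.026 and 0.20 for Clcn3 on its _g_at probe set, -0.24 and 0.0093 for Clcn5 on the probe set low at 4 h, -0.49 and 0.23 for Clcn7 on the probe set low at 6 h, -0.055 and 0.017 for Hcn2 on its steady probe set, -0.21 and 0.028 for Hcn2 on its _r_at probe set, -0.012 and 0.26 for Itpr2 on its _f_at probe set, -0.19 and 0.59 for Ryr1, and -0.25 and 0.0040 for Scn1a on its second probe set. Ryr1 passed the filter only without the 1 h or the 6 h array, so its range comes from those fits alone. With arrays scaled to a common median, Hcn2 on its steady probe set had a slope of 0.0025 in place of -0.02. The cause was not tested. No group was compared with another, so no paired analysis was possible because the labels give 1 group.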
